A study of Mus musculus with 17 samples.

Results

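miR-92b is a microRNA (miRNA) gene of the mouse. Its hairpin precursor can release a small RNA from each side, called mmu-miR-92b-5p and mmu-miR-92b-3p in the table and, without the species prefix, miR-92b-5p and miR-92b-3p here. Both rows of that name in the miRNA table were taken, so the members are 2 of 1033 mature miRNAs. They were chosen because miR-92b-3p had already stood out in these data, so its own levels are described here without tests. Only 1 of the 2 members, miR-92b-3p, reached the minimum set for the model fits, a mean of 5 per 1000000 of the column total. The other, miR-92b-5p, is described by its reads.

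Small RNA was sequenced from B8 and D3, 2 lines of mouse embryonic stem cells (ESCs), for which the labels state no strain or genotype. At day 0 the cells were undifferentiated and grew in serum with LIF, the cytokine that keeps ESCs undifferentiated, on plates with no feeder layer. Embryoid bodies, aggregates made in hanging drops, were collected at day 7, and the outgrowths they formed were collected at day 21. All differentiating groups were kept in medium without LIF to which retinoic acid, a supplement of insulin, transferrin and selenium, and N2 had been added, and no differentiated group lacked retinoic acid. The 14 libraries analysed were 3 each of B8 day 0, B8 day 7, D3 day 0 and D3 day 21, and 2 of D3 day 7 (replicates 2 and 3). The 3 samples of B8 day 21 were not analysed here. Each line is a single line, and the labels do not say whether its replicates were separate cultures, so a p-value here speaks only of the variation among these libraries, part or all of which could be technical.

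A mature miRNA guides the Argonaute protein to messenger RNAs, mostly through bases 2 to 8 at its 5′ end, the seed. miRNAs with the same seed can bind overlapping sets of targets, and miR-92b-3p shares its seed with the miR-25 and miR-92a family. Most of that family lies in the miR-17-92, miR-106a-363 and miR-106b-25 clusters, which are known for promoting proliferation and are abundant in ESCs. miR-92b has a gene of its own and is known from neural progenitors of the developing cortex, where it represses the transcription factor Eomes (Tbr2).

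The mature sequences below show what the family shares and how near its members are, which bears on every value given here. They come from RefSeq (GRCm38.p6), run 5′ to 3′, and have the seed in capitals.
miR-92b-3p: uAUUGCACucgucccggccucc
miR-92a-3p: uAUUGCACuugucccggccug
miR-25-3p: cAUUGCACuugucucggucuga
miR-363-3p: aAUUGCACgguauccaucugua
miR-32-5p: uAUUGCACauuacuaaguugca
miR-367-3p: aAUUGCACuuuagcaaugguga
miR-92b-5p: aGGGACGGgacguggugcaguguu

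Among 1679 mature miRNAs in the RefSeq table, 6 carried the seed AUUGCAC, from 7 loci. The seed of miR-92b-5p, GGGACGG, was found in no other. miR-92a-3p was the nearest relative, with 19 of 21 positions identical to miR-92b-3p. Counted from 1 at the 5′ end of miR-92b-3p, it differed by C10U and C21G, and it was 1 base shorter. miR-25-3p matched at 16 of 22 positions, miR-32-5p at 11, and miR-363-3p and miR-367-3p at 10 each. How the authors assigned reads that match several miRNAs is not given in the sources used here. The split of reads between miR-92b-3p and miR-92a-3p rests on these 2 positions and on how mismatches were treated, and is uncertain to that extent.

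The Mir92b hairpin spans chr3:89227116-89227198 on the minus strand (GRCm38, the mm10 build that the submitters' processing notes name). It lies between genes. The nearest coding gene on one side is Mtx1, on the same strand and 27 bases away, and on the other side Muc1, on the opposite strand and 1858 bases away. The hairpin of 83 bases is shown with both arms in capitals, miR-92b-5p at bases 11 to 34 and miR-92b-3p at bases 52 to 73.
Mir92b: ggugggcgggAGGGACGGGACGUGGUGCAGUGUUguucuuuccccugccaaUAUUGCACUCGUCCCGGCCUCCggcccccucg

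The hairpin was 67.5% G and C, and miR-92b-3p itself 63.6%. That was more than in 87.9% of the 428 other kept miRNAs with a RefSeq sequence, whose median was 47.8%.

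The relatives come from other loci. miR-92a-3p has copies on chromosome 14 (115044476 to 115044496, in an exon of the non-coding host gene Mir17hg) and on chromosome X (52741854 to 52741874, between genes). miR-363-3p lies beside the latter. miR-25-3p lies on chromosome 5 within Mcm7, miR-32-5p in an intron of Tmem245, and miR-367-3p within an intron of Larp7, antisense to that gene.

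The libraries held 56377 to 1060306 miRNA reads, fewest in D3 day 0 and most in D3 day 7. The deposited values are reads divided by a factor per library, and their column totals differed 17.7-fold, so a level depends on the scale. Values are given on 3 scales: as deposited, as a percent of all miRNA reads of the library, and as rescaled values. Rescaled values are deposited values divided by median-of-ratios factors, computed over 319 miRNAs above 0 in all libraries so that the typical miRNA is level. miRNAs of ESCs and epiblast (the miR-290 and miR-302 clusters) made up 25.8 to 28.9% of miRNA reads in B8 day 0 and 20.0 to 25.1% in D3 day 0. Their sum was 5.97 to 10.6% in B8 day 7, 0.685 to 0.695% in D3 day 7 and 1.30 to 1.46% in D3 day 21. The retinoic acid and Hox-linked miR-10a-5p and miR-10b-5p took 43.8% ± 2.75 (SD, n = 3) of reads in B8 day 7 and 65.2% ± 2.65 (SD, n = 2) in D3 day 7, against 0.628% or less on average at day 0.

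miR-92b-3p was an abundant miRNA in every group, higher in embryoid bodies than in ESCs of the same line on the rescaled values, and higher in D3 than in B8 at day 0. In B8 day 0 it had 2133, 1827 and 1363 reads, or 0.775%, 0.724% and 0.985% of miRNA reads. In B8 day 7 it had 5343, 3809 and 4516 reads, or 2.27%, 1.48% and 3.18%. The day 7 libraries of B8 all lay above those of day 0, and they varied more among themselves.

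In D3 day 0 it had 2646, 1951 and 1175 reads, or 2.18%, 1.51% and 2.08%. In D3 day 7 it had 20739 and 19581 reads, or 1.96% and 1.94%. In D3 day 21 it had 14135, 16605 and 11775 reads, or 2.58%, 2.23% and 1.66%. As percents, the 3 D3 groups overlapped, and all of them lay above B8 day 0.

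Ordered by mean abundance within its group, miR-92b-3p ranked 24 in B8 day 0, 6 in B8 day 7, 11 in D3 day 0, 5 in D3 day 7 and 10 in D3 day 21. In both day 7 groups the miRNA next above it was miR-181a-5p, at 3.44% ± 1.22 (SD, n = 3) in B8 and 2.17% ± 0.0374 (SD, n = 2) in D3. The ranges of the percents overlapped with miR-181a-5p in B8 day 7 and not in D3 day 7. Next below it in D3 day 7 came miR-298-5p at 1.53% ± 0.0972 (SD, n = 2), also without overlap. At day 0 and day 21 its percents overlapped with those of the miRNA next above and next below, so those ranks do not separate it from its neighbours.

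On the rescaled values miR-92b-3p stood at 1147, 1054 and 1270 in B8 day 0 and at 4442, 2748 and 7485 in B8 day 7. The means were 1157 ± 108 (SD, n = 3) and 4891 ± 2400 (SD, n = 3). The fitted difference was 1.96 ± 0.26 (SE) on the scale of log2(value + 0.48), or 3.90-fold. The groups did not overlap, as was the case for 55.5% of the 521 kept miRNAs, and replicate 3 lay well above the other B8 day 7 libraries.

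D3 day 0 stood at 2734, 1848 and 2568, with a mean of 2384 ± 471 (SD, n = 3). D3 day 7 stood at 6896 and 5978, with a mean of 6437 ± 649 (SD, n = 2), 1.45 ± 0.29 (SE) higher on the log2 scale, or 2.73-fold. D3 day 21 stood at 3794, 3496 and 2869, with a mean of 3386 ± 472 (SD, n = 3). That was 0.52 ± 0.26 (SE) above day 0 and 0.93 ± 0.29 (SE) below day 7 on the log2 scale. The 3 D3 groups did not overlap on this scale. Of all kept miRNAs, 72.6% did not overlap between day 7 and day 0, 68.7% between day 21 and day 0, and 64.3% between day 21 and day 7.

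Between the lines, D3 exceeded B8 at day 0 by 1.03 ± 0.26 (SE) on the log2 rescaled scale, or 2.04-fold, without overlap, as was the case for 37.8% of kept miRNAs. At day 7 the difference was 0.51 ± 0.29 (SE), and the groups overlapped. The change from day 0 to day 7 was smaller in D3 than in B8 by 0.51 ± 0.39 (SE), little more than its standard error. These differences stand beside a median over all kept miRNAs of -0.05 in B8 day 7 against day 0, 0.27 and 0.41 in D3 day 7 and day 21 against day 0, and -0.11 and 0.37 in D3 against B8 at day 0 and day 7. For the change to day 7 in D3 minus that in B8, the same median was 0.50.

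**Figure D1:**
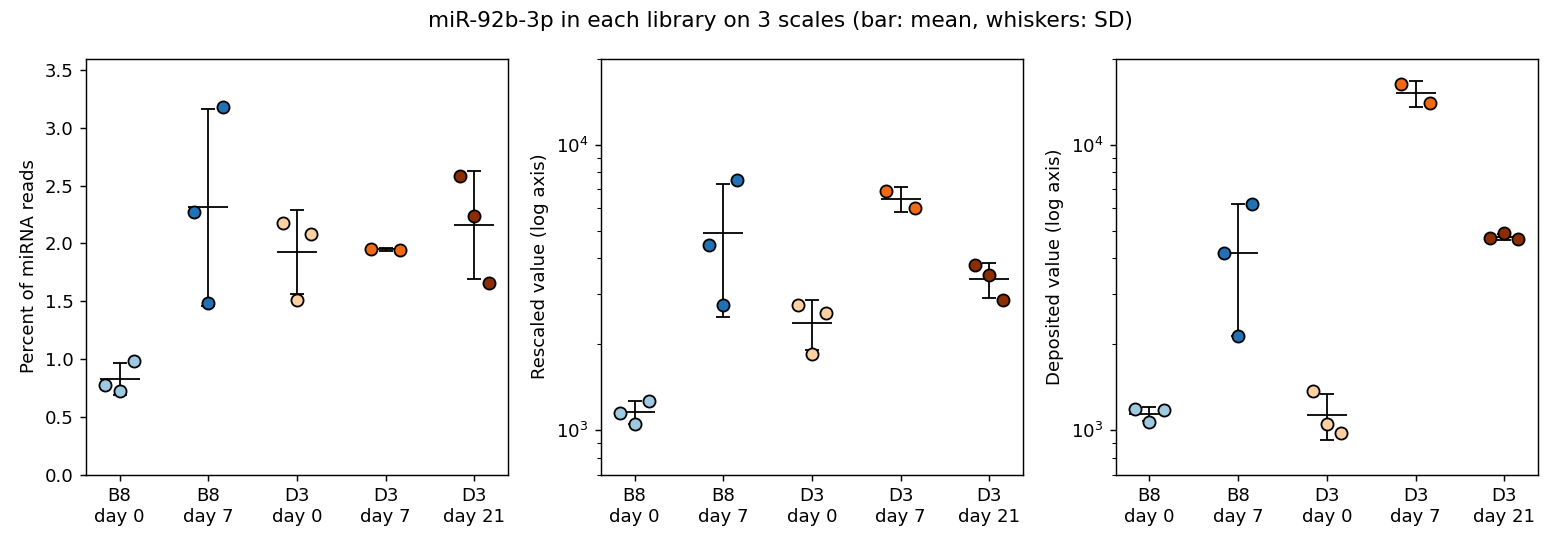
miR-92b-3p in each of the 14 libraries as a percent of miRNA reads, as a rescaled value and as deposited (log axes for the latter), by line and day; points are libraries, bars means and whiskers SD. B8 rises from day 0 to day 7 in all 3 panels, whereas the order of the 3 D3 groups differs between panels.

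For D3 the scale decides the size of the change. As deposited, the means were 1145 in B8 day 0, 4172 in B8 day 7, 1133 in D3 day 0, 15128 in D3 day 7 and 4758 in D3 day 21. The deposited log2 differences were 1.74 in B8 day 7, 3.75 in D3 day 7 and 2.08 in D3 day 21, each against day 0. On that scale the median kept miRNA also moved, by -0.21, 2.25 and 1.69. With equal column totals the same differences of miR-92b-3p were 1.43, 0.04 and 0.16. The D3 day 7 libraries are those in which miR-10a-5p and miR-10b-5p took most reads. Among reads other than these 2 miRNAs, miR-92b-3p made up 0.833% ± 0.139 (SD, n = 3) in B8 day 0 and 4.17% ± 1.72 (SD, n = 3) in B8 day 7. The same percent was 1.93% ± 0.364 (SD, n = 3) in D3 day 0, 5.61% ± 0.456 (SD, n = 2) in D3 day 7 and 2.48% ± 0.507 (SD, n = 3) in D3 day 21. On this basis, added after seeing the data, the log2 differences against day 0 were 2.25 in B8 day 7, 1.56 in D3 day 7 and 0.36 in D3 day 21. The direction in B8 was the same on all 4 scales. In these bulk samples fewer cells of a type and less RNA per cell cannot be told apart.

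The 5p arm was close to absent. Summed over the 14 libraries, 9 reads were of miR-92b-5p and 107598 of miR-92b-3p, so the 5p arm made up 0.00836% of both (exact Clopper-Pearson 95% interval 0.00382 to 0.0159%). It was seen in 5 of 14 libraries with at most 2 reads each. B8 day 7 had 4 such reads of 13672, D3 day 7 had 2 of 40322 and D3 day 21 had 3 of 42518. B8 day 0 had 0 of 5323 and D3 day 0 had 0 of 5772. Taking 3 reads of the total as the limit for a count of 0, that allows shares of up to 0.0564% and 0.0520%. Intervals and limits of this kind describe counting error alone, because PCR copies of a molecule are counted as separate reads. The groups could not be told apart at this depth.

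Of 132 miRNAs with both arms in the table and at least 1000 reads of both arms together, 4 had a smaller share in the minor arm than miR-92b, and the median share was 1.67%. Its relatives were less one-sided. The 5p arm made up 0.460% of the reads of miR-25, 7.39% of those of miR-363 and, for both loci together, 29.5% of those of miR-92a.

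The share of miR-92b-3p in the reads of its seed family was higher in the differentiated groups of both lines than at day 0. This share needs no scale between libraries. miR-92b-3p made up 16%, 14.1% and 17.1% of the reads of the 6 family members in B8 day 0, and 49.3%, 37.2% and 58.2% in B8 day 7. In D3 it made up 36.6%, 29.6% and 32.9% at day 0, 66.7% and 61.3% at day 7, and 64.7%, 59.2% and 54.7% at day 21. The means were 15.7% ± 1.55 (SD, n = 3), 48.2% ± 10.5 (SD, n = 3), 33.0% ± 3.5 (SD, n = 3), 64.0% ± 3.83 (SD, n = 2) and 59.5% ± 4.99 (SD, n = 3). In both lines every differentiated library lay above every day 0 library, and at each shared day D3 lay above B8. D3 day 7 and D3 day 21 overlapped.

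**Figure D2:**
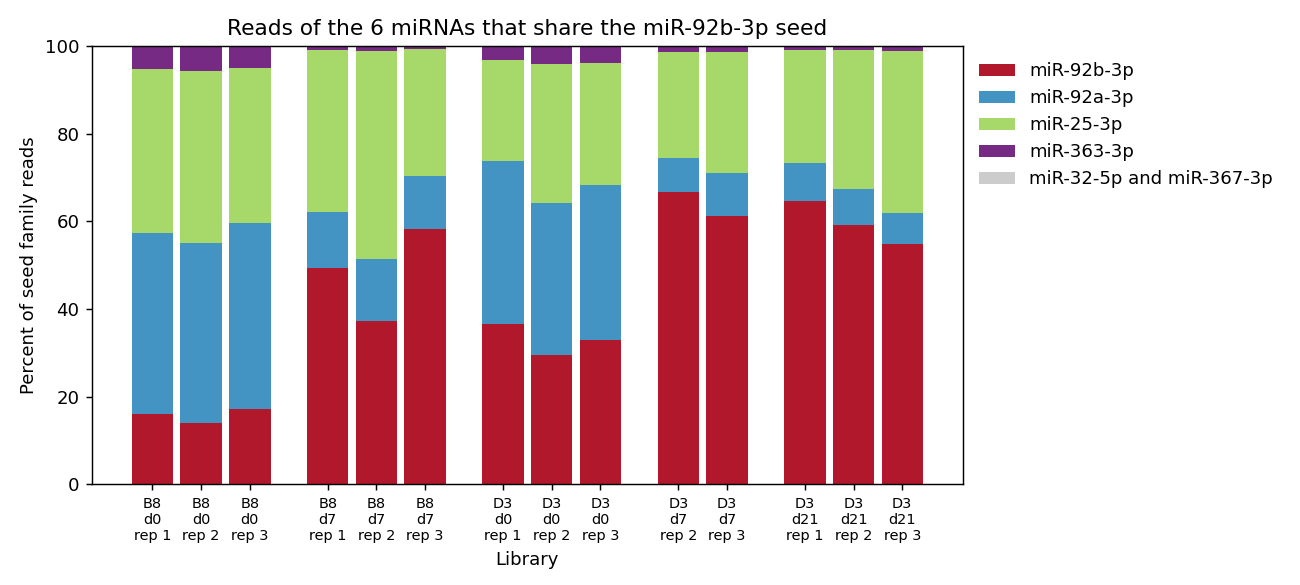
Percent of the reads of the 6 miRNAs with the seed AUUGCAC held by each, in stacked bars, 1 bar per library. The miR-92b-3p segment grows from 14.1 to 17.1% in B8 day 0 to 37.2 to 58.2% in B8 day 7 and from 29.6 to 36.6% in D3 day 0 to 54.7% or more at days 7 and 21, while the miR-92a-3p segment shrinks.

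The share of miR-92a-3p went the other way. It was 41.6% ± 0.860 (SD, n = 3) in B8 day 0 and 13.1% ± 1.02 (SD, n = 3) in B8 day 7. In D3 it was 35.8% ± 1.25 (SD, n = 3) at day 0, 8.73% ± 1.28 (SD, n = 2) at day 7 and 7.94% ± 0.766 (SD, n = 3) at day 21. There were accordingly 0.377 ± 0.0302 reads of miR-92b-3p per read of miR-92a-3p in B8 day 0 and 3.75 ± 1.08 in B8 day 7 (SD, n = 3 each). The ratio in D3 was 0.921 ± 0.0661 (SD, n = 3) at day 0, 7.44 ± 1.53 (SD, n = 2) at day 7 and 7.51 ± 0.286 (SD, n = 3) at day 21. The miR-25-3p share stayed between group means of 25.9% in D3 day 7 and 37.8% in B8 day 7.

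From day 0 to day 7 the summed family moved less on the rescaled values than the share of miR-92b-3p in it. Rescaled family sums were 7361 ± 172 (SD, n = 3) in B8 day 0 and 9751 ± 2818 (SD, n = 3) in B8 day 7. They were 7179 ± 823 (SD, n = 3) in D3 day 0, 10045 ± 413 (SD, n = 2) in D3 day 7 and 5670 ± 371 (SD, n = 3) in D3 day 21. Without miR-92b-3p the rescaled sums had means of 6204 in B8 day 0, 4860 in B8 day 7, 4795 in D3 day 0, 3608 in D3 day 7 and 2284 in D3 day 21. In each line the rest of the family, as a rescaled sum, was thus lower in the differentiated groups than at day 0. On the deposited values its abundant members were higher in D3 day 7 than in D3 day 0. The means there were 6100 against 937 for miR-25-3p, 2055 against 1227 for miR-92a-3p and 310 against 125 for miR-363-3p.

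The relatives were not chosen by their values here and were tested in a limma model over all 521 kept miRNAs, with Benjamini-Hochberg adjustment and a threshold of 0.05. On the rescaled values limma called 52.7% of the other 520 kept miRNAs in B8 day 7 against day 0 (26.7% up, 26.0% down), 63.1% in D3 day 7 against day 0 (36.0% up, 27.1% down) and 63.8% in D3 day 21 against day 0 (38.3% up, 25.6% down). edgeR on the recovered reads called 65.2% in D3 day 21 against day 0. A call on its own is therefore common.

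miR-92a-3p had rescaled values of 2967, 3067 and 3160 in B8 day 0 and of 1161, 1046 and 1565 in B8 day 7. It fell by 1.31 on the log2 scale (limma adjusted p = 6.1e-06). In D3 it stood at 2776, 2167 and 2774 at day 0, at 809 and 940 at day 7, and at 500, 487 and 371 at day 21. It fell by 1.55 to day 7 (limma adjusted p = 2.2e-06) and by 2.51 to day 21 (limma adjusted p = 7.6e-10). None of these groups overlapped within a line, beside 55.5% of kept miRNAs without overlap in B8 and 64.3 to 72.6% in the 3 D3 comparisons. Every differentiated library lay below day 0, opposite to miR-92b-3p.

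miR-363-3p, from the chromosome X cluster, stood at 364, 428 and 374 in B8 day 0 and at 74.8, 80.8 and 77.9 in B8 day 7. It fell by 2.31 on the log2 rescaled scale (limma adjusted p = 2.9e-09). In D3 it stood at 239, 249 and 299 at day 0, at 137 and 126 at day 7, and at 43.2, 48.2 and 56.0 at day 21. It fell by 0.98 to day 7 (limma adjusted p = 0.00017) and by 2.41 to day 21 (limma adjusted p = 6.4e-10). The fall to day 7 was smaller in D3 than in B8 by 1.32 (limma interaction, adjusted p = 0.00045, where 33.3% of miRNAs were called). With equal column totals this interaction was 0.45 (limma adjusted p = 0.23).

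On the deposited values miR-92a-3p and miR-363-3p were higher in D3 day 7 than in D3 day 0, by 0.75 and 1.31 on the log2 scale (limma adjusted p = 0.0073 and 9.3e-05). There 70.4% of miRNAs were called up and 6.92% down, and both stood below the median shift of 2.25. Both were lower in B8 day 7 and D3 day 21 than at day 0 on the deposited values too.

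miR-25-3p, from the Mcm7 gene, differed little in level on the rescaled values. It stood at 2681, 2940 and 2609 in B8 day 0 and at 3325, 3503 and 3736 in B8 day 7, a rescaled log2 difference of 0.36 (limma adjusted p = 0.041). In D3 it stood at 1721, 1977 and 2162 at day 0 and at 2490 and 2703 at day 7, a difference of 0.42 (limma adjusted p = 0.029). Both calls were lost with a prior without trend (limma adjusted p = 0.11 and 0.093) and with edgeR (adjusted p = 0.097 and 0.32, where edgeR called 50.8% and 62.7% of miRNAs). Both differences were negative with equal column totals, at -0.18 and -0.996 (limma adjusted p = 0.33 and 4.8e-05). On the deposited values they were 0.13 and 2.72 (limma adjusted p = 0.63 and 6.2e-10). For the latter comparison 70.4% of miRNAs were called up there, and the median shift was 2.25. D3 day 21 stood at 1521, 1864 and 1938, and its difference from day 0 was -0.14 (limma adjusted p = 0.39).

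miR-32-5p and miR-367-3p were near the floor of 3 reads, with 116 and 78 reads over all libraries. miR-32-5p was called in none of the 3 comparisons with day 0 on the rescaled values. Its calls depend on the scale. On the deposited values it was higher in D3 day 7 by 2.21 and in D3 day 21 by 1.72 (limma adjusted p = 0.00052 and 0.0020), near the median shifts of 2.25 and 1.69. On that scale 70.4% and 65.2% of miRNAs were called up. With equal column totals its difference in B8 day 7 was -1.43 (limma adjusted p = 0.013, where 35.8% were called down). miR-367-3p was called down in B8 day 7 and D3 day 7 on 2 and 6 reads, which is too few to weigh beside the other members.

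**Figure D3:**
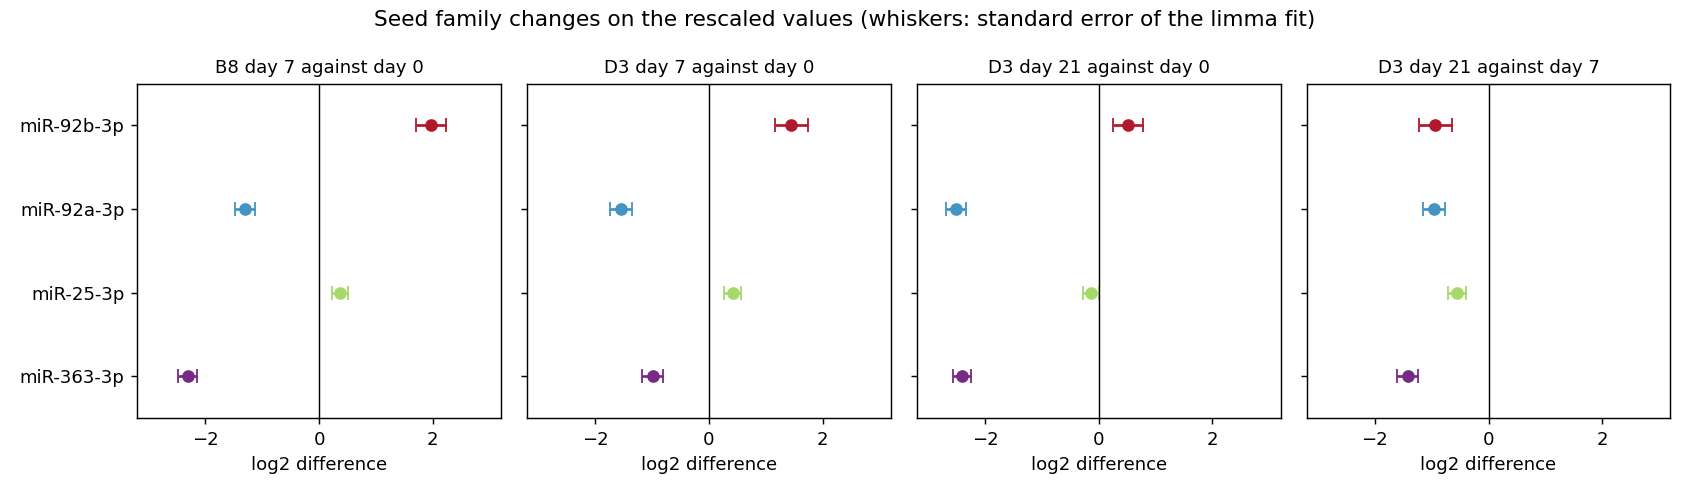
Fitted log2 differences of the 4 abundant family members on the rescaled values in the 4 time comparisons; points are estimates and whiskers standard errors of the limma fit. miR-92b-3p lies at 1.96 and 1.45 in the day 7 panels while miR-92a-3p lies at -1.31 and -1.55; in D3 day 21 against day 7 all 4 lie below 0, which with equal column totals held for miR-363-3p alone.

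From D3 day 7 to day 21 miR-92b-3p and its 3 abundant relatives were lower on the rescaled values, where 26.9% of miRNAs were called, 16.5% up and 10.4% down. miR-92a-3p fell by 0.96 (limma adjusted p = 0.0015) and miR-363-3p by 1.42 (limma adjusted p = 1.6e-05), beside -0.93 for miR-92b-3p. miR-25-3p stood 0.56 lower (limma adjusted p = 0.014), a call lost with edgeR (adjusted p = 0.17, where edgeR called 41.0%) and without either D3 day 7 library (limma adjusted p = 0.058 without replicate 2 and 0.13 without replicate 3). With equal column totals the differences of miR-92b-3p, miR-92a-3p and miR-25-3p were above 0, at 0.12, 0.10 and 0.50, and that of miR-363-3p was -0.37 (limma adjusted p = 0.15). The sparsely read miR-367-3p and miR-32-5p had rescaled differences of 1.59 and 0.18 (limma adjusted p = 0.064 and 0.82).

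Between the lines at day 0, where 23.5% of miRNAs were called on the rescaled values, miR-92a-3p differed by -0.26 in D3 against B8 (limma adjusted p = 0.31). miR-25-3p differed by -0.49 (limma adjusted p = 0.014) and miR-363-3p by -0.57 (limma adjusted p = 0.015), both calls lost with equal column totals (limma adjusted p = 0.15 and 0.14). miR-92b-3p, by contrast, stood 1.03 higher in D3 than in B8 at day 0 on the rescaled values, and -0.03 from it on the deposited ones. At day 7, where 41.5% were called, miR-363-3p was 0.76 higher in D3 (limma adjusted p = 0.0033), a call lost with edgeR (adjusted p = 0.064, where edgeR also called 41.5%) and with equal column totals (limma adjusted p = 0.84). On the rescaled values at day 7 miR-25-3p differed by -0.44 and miR-92a-3p by -0.51 (limma adjusted p = 0.034 and 0.046). Both calls were lost with a prior without trend (limma adjusted p = 0.11 and 0.12) and without either D3 day 7 library (0.21 and 0.28 without replicate 2, 0.088 and 0.086 without replicate 3).

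Of 25 mature miRNAs of the miR-17-92, miR-106a-363 and miR-106b-25 clusters, 22 were kept. Over the 520 kept miRNAs other than miR-92b, limma called 26.7% up and 26.0% down in B8 day 7 against day 0. Against D3 day 0 it called 36.0% up and 27.1% down in D3 day 7, and 38.3% and 25.6% in D3 day 21. On the rescaled values 0 rose and 15 fell in B8 day 7 against day 0, with a median log2 difference of -1.43 against -0.05 over all kept miRNAs. In D3 day 7, 2 rose and 8 fell, with a median of -0.69 against 0.27, and in D3 day 21, 0 rose and 15 fell, with a median of -1.09 against 0.41. miR-92a-1-5p, the other arm of the chromosome 14 copy of miR-92a, fell by 1.79 in B8 day 7 (limma adjusted p = 5.6e-08) and by 1.81 in D3 day 7 (limma adjusted p = 1.1e-07). miR-93-5p, a neighbour of miR-25 in Mcm7, had a difference of -0.13 in B8 day 7 (limma adjusted p = 0.51) and of 0.43 in D3 day 7 (limma adjusted p = 0.045). On the deposited values the D3 day 7 counts were 10 up and 0 down, with a median of 1.24 against 2.25. There 70.4% of all miRNAs were called up and 6.92% down.

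Markers of several cell types moved over the same libraries as miR-92b-3p, and their part in its levels was not tested. Their counts here and below are to be read beside the shares over all kept miRNAs on the rescaled values. Those were 26.7% up and 26.0% down in B8 day 7, 36.0% and 27.1% in D3 day 7, and 38.3% and 25.6% in D3 day 21, each against day 0. The ESC and epiblast list, 16 kept of 17, had 14 members that fell in B8 day 7, 15 in D3 day 7 and 12 in D3 day 21, with 0, 0 and 3 that rose. The 20 neural miRNAs in the table summed to 0.411 to 0.468% of miRNA reads in B8 day 0, 1.28 to 1.31% in B8 day 7, 0.516 to 0.551% in D3 day 0, 1.46 to 1.52% in D3 day 7 and 0.846 to 0.992% in D3 day 21. Of the 19 kept, 9 rose and 2 fell in B8 day 7, 12 rose and 2 fell in D3 day 7, and 11 rose and 2 fell in D3 day 21, with median log2 differences of 1.16, 2.04 and 1.97. From D3 day 7 to day 21, 0 rose and 4 fell, with a median of -0.58, where 16.5% of all miRNAs were called up and 10.4% down. The neural miR-137-3p and miR-383-5p were at 0 in both day 0 groups, and no neural marker was at 0 at day 7 or 21. The D3 day 0 libraries had the fewest reads, so a 0 there also depends on depth.

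miR-7a-5p, on the neural list and also known from endocrine cells, was one of the members that fell, by 2.23 in B8 day 7 (limma adjusted p = 3.1e-07) and by 3.40 in D3 day 7 (limma adjusted p = 3.2e-09). The mesenchymal and smooth muscle markers, 8 kept of 9 listed, split in B8 day 7 with 2 up and 3 down, whereas 8 rose in D3 day 7 and in D3 day 21. They summed to 1.34 to 1.55% of reads in B8 day 0 and to 0.182 to 0.234% in D3 day 0, and reached 4.04 to 5.13% in D3 day 21. Their best-read member, miR-143-3p, rose 1.84 from D3 day 7 to day 21 (limma adjusted p = 4.9e-06), an interval over which the rescaled value of miR-92b-3p was lower.

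Muscle markers were near 0 in all groups but D3 day 21, where they summed to 0.129 to 0.351% of reads. Of the 7 listed, 4 reached the minimum mean over all libraries, to which D3 day 21 gave most of their signal. All 4 had risen from day 7, a comparison with 16.5% of all miRNAs called up. That rise was largely fixed in advance by the minimum, so the count is no result about these markers. miR-206-3p and miR-208a-3p were at 0 in the other 4 groups. Of the 6 kept blood and endothelial markers, 1 rose and 3 fell in B8 day 7, 3 rose and 2 fell in D3 day 7, and 4 rose and 1 fell in D3 day 21. The erythroid miR-451a was at 0 in B8 day 0, B8 day 7, D3 day 0 and D3 day 7. Of 5 endodermal markers, 1 rose and 1 fell in B8 day 7, 1 rose in D3 day 7 and 4 rose in D3 day 21.

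The likeness of each kept miRNA to miR-92b-3p was measured as the Pearson correlation of log2 rescaled values over the 14 libraries. These points share libraries, depth, groups and rescaling factors, so the values are a description. The 5 highest were miR-298-5p (r = 0.93, Spearman's rho 0.95), miR-433-3p (0.91), miR-325-5p (0.90), miR-219a-2-3p (0.87) and miR-423-5p (0.87). miR-325-5p had at most 13 reads in any library. miR-298-5p also ranked 1 on the deposited values and with equal column totals, and its r was 0.99 over the 6 B8 libraries and 0.96 over the 8 D3 libraries.

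miR-298-5p is shown beside miR-92b-3p because its pattern was the nearest although it has another seed, and it is likewise rich in G and C, at 65.2%.
miR-298-5p: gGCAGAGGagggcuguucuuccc
Its rescaled values were 1060 ± 94.5 in B8 day 0 and 3248 ± 1021 in B8 day 7 (SD, n = 3 each). They were 1199 ± 200 (SD, n = 3) in D3 day 0, 5063 ± 804 (SD, n = 2) in D3 day 7 and 2622 ± 613 (SD, n = 3) in D3 day 21. Unlike miR-92b-3p, miR-298-5p had overlapping ranges in B8 day 0 and D3 day 0.

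**Figure D4:**
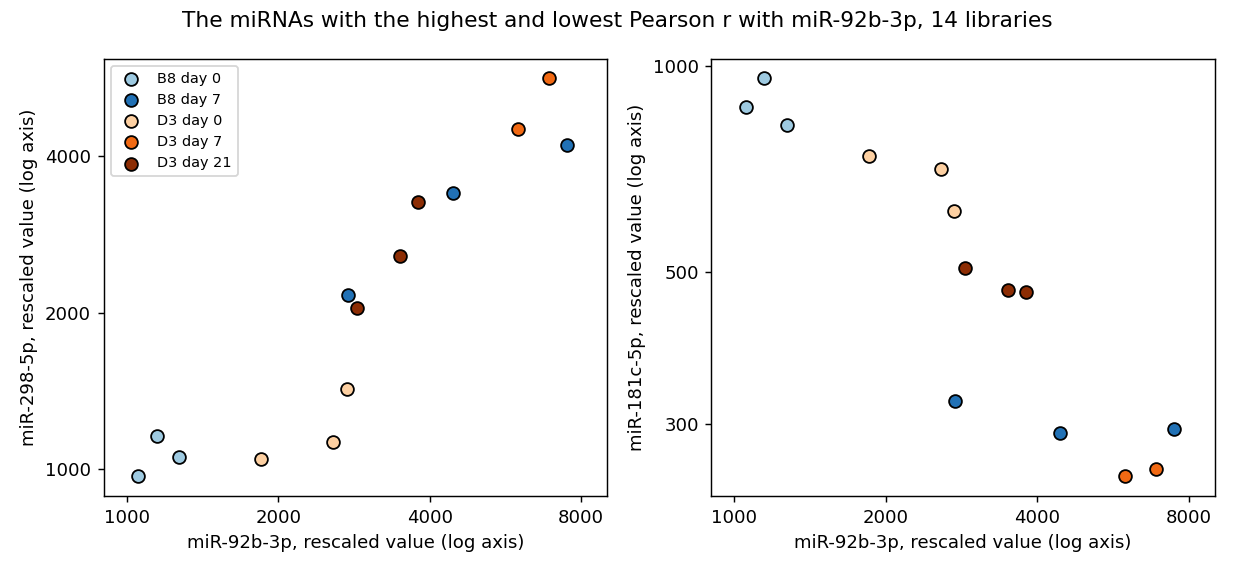
Rescaled values of miR-298-5p (left) and miR-181c-5p (right) against miR-92b-3p on log axes, 1 point per library, coloured by line and day. miR-298-5p rises with miR-92b-3p (r = 0.93) and miR-181c-5p falls (r = -0.92).

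miR-219a-2-3p, known from oligodendrocyte differentiation and on the neural list, had a mean rescaled value of 0.682 in B8 day 0 and 2.43 in D3 day 0, against 409 in B8 day 7, 581 in D3 day 7 and 175 in D3 day 21. miR-433-3p, of the imprinted Dlk1-Dio3 region, covered a narrower range, from 127 ± 6.01 (SD, n = 3) in B8 day 0 to 271 ± 30.0 (SD, n = 2) in D3 day 7. The lowest correlations were those of miR-181c-5p (r = -0.92), miR-141-3p (-0.91) and miR-31-5p (-0.90). miR-141-3p, an epithelial miRNA of the miR-200 family, stood at 119 ± 13.1 (SD, n = 3) in B8 day 0, 37.1 ± 3.81 (SD, n = 3) in B8 day 7, 49.3 ± 14.7 (SD, n = 3) in D3 day 0 and 13.7 ± 3.45 (SD, n = 2) in D3 day 7. Within the seed family the correlations with miR-92b-3p were 0.10 for miR-25-3p, -0.58 for miR-92a-3p and -0.68 for miR-363-3p. The negative correlations depend on the scale, as that of miR-181c-5p was 0.02 on the deposited values. The order of the highest depends on it too. With equal column totals miR-298-5p, miR-433-3p, miR-325-5p, miR-219a-2-3p and miR-423-5p ranked 1, 24, 3, 10 and 60. On the deposited values they ranked 1, 3, 7, 40 and 19. With equal column totals r was 0.61 for miR-433-3p and 0.47 for miR-423-5p.

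Base composition moved with some of these differences. Across the 428 kept miRNAs with a sequence, which are not independent replicates, the Spearman correlation of the percent of G and C was 0.37 with the log2 ratio of replicate 3 to replicate 2 in B8 day 7 and 0.38 with that of replicate 1 to replicate 3 in D3 day 21. These pairs are the libraries with the highest and lowest rescaled miR-92b-3p of their groups. That miR-92b-3p was higher in the former replicate was thus fixed by the choice of pairs. With the log2 difference of B8 day 7 from day 0 it was 0.19, where the 107 miRNAs richest in G and C had a median of 0.77 and the other 3 groups of 107 lay between -0.39 and -0.15. With the D3 differences it was 0.02 at day 7 and -0.09 at day 21. The richest group nevertheless had the highest median in D3 day 7, at 0.68 against 0.52, -0.15 and 0.15 from the poorest group up. In D3 day 21 its median was 0.56, below the 0.99 of the poorest group. For D3 day 21 against day 7 the Spearman correlation was -0.19, with medians of -0.26 in the richest group and 0.26 in the poorest. For the change to day 7 in D3 minus that in B8 it was -0.22. For D3 against B8 it was 0.11 at day 0 and -0.15 at day 7. miR-92a-3p, itself in the group richest in G and C at 57.1%, fell in B8 day 7, and a single miRNA does not describe the group. The part of base composition in the levels of miR-92b-3p was not tested.

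Around Mir92b the annotation holds 7 other miRNA precursors within 2 Mb, with 13 mature miRNAs. Of these, miR-9-5p and miR-9-3p of Mir9-1, 1012 kb away on the opposite strand, were kept. miR-9-5p also has copies on chromosomes 7 and 13, so its reads cannot be assigned to this locus. miR-9-5p, a miRNA of neural progenitors and neurons that promotes differentiation, had mean rescaled values of 33.0 ± 2.03 in B8 day 0 and 1938 ± 331 in B8 day 7 (SD, n = 3 each). It had 23.8 ± 11.9 (SD, n = 3) in D3 day 0, 3843 ± 497 (SD, n = 2) in D3 day 7 and 901 ± 143 (SD, n = 3) in D3 day 21. It rose by 5.84 in B8 day 7 (limma adjusted p = 6.6e-11), by 7.45 in D3 day 7 (limma adjusted p = 4.8e-12) and by 5.35 in D3 day 21 (limma adjusted p = 4.8e-11) on the log2 scale, and it fell by 2.10 from D3 day 7 to day 21 (limma adjusted p = 0.00015). Its low group means at day 0, 33.0 and 23.8, contrast with those of miR-92b-3p, 1157 and 2384. The rise to day 7 was larger in D3 than in B8 by 1.61 (limma interaction, adjusted p = 0.0099), whereas the same difference for miR-92b-3p was -0.51 ± 0.39 (SE).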

How the data were processed

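The deposited table holds 1 value per mature miRNA and library. The authors deposited signal, that is, reads divided by a factor per library, and the table's title names TMM. The submitters' processing notes name CASAVA, FastQC, Bowtie, Partek and mm10; versions, settings and counting rules are not given in the sources used here. Whole reads were recovered, since 100% of values below 1000 reads came out whole to within 0.01 of a read in each library. The fold between the lowest and highest column total of the deposited signal was 17.7, so rescaled values were the basis of the tests.

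A limma model (3.58.1, R 4.3.3) of 5 group means on log2(value + 0.48), with a pseudocount of 2 per 1000000 of the mean column total, was fitted to the 521 miRNAs whose mean reached 5 per 1000000. Its prior followed the mean level, and 9 degrees of freedom remained. Calls use an adjusted p (Benjamini-Hochberg) threshold of 0.05 over all 521. The scripts were tested on simulated data. Alternatives were deposited values, equal totals, edgeR 4.0.16 (quasi-likelihood, TMM) on recovered reads, pseudocounts of 0.2 and 10 per 1000000, no filter, a filter at 50 per 1000000, a prior without trend, only the groups compared, a replicate block and leaving out each library. Totals equal outside miR-10a-5p and miR-10b-5p were added after seeing the data. Replicate pairs all differed by more than sampling noise.

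The members and lists were chosen with earlier results of these data known. Named miRNAs were the members, their seed family, the 5 most and 3 least alike by Pearson r, miRNAs within 2 Mb, up to 3 of the most abundant of each list, and neighbours in rank. The paralogous clusters list and the marker lists (ESC and epiblast, neural, muscle, mesenchyme and smooth muscle, blood and endothelium, endoderm) are described by counts. RefSeq sequences are from GRCm38.p6.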

Additional observations from a re-analysis of the deposited data

Results flagged for a closer look

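Limma's interaction test on the rescaled values was read for the seed family, the miRNAs most and least like miR-92b-3p, and miR-9. For 2 of these miRNAs the change from day 0 to day 7 differed between the lines. Over the 520 kept miRNAs other than miR-92b the test called 33.3%, and the median log2 change in D3 minus that in B8 was 0.50. The log2 change of miR-363-3p, of the same seed family as miR-92b-3p, was 1.32 higher in D3 than in B8 (limma adjusted p = 0.00045). Its rescaled level was lower at day 7 than at day 0 in every library of both lines. On the deposited values it was higher in D3 day 7 than in D3 day 0, by 1.31 on the log2 scale (limma adjusted p = 9.3e-05). The log2 change of miR-9-5p, whose locus Mir9-1 lies on the chromosome of Mir92b, was 1.61 higher in D3 than in B8 (limma adjusted p = 0.0099), and its level was higher at day 7 in every library of both lines.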

How the results depend on the processing

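Of 175 counts of called miRNAs under alternatives, 165 were within 1.5 times the main count. For D3 day 21 against day 0, a filter at 50 per 1000000 left 292 miRNAs to test, of which 215 (73.6%) were called, against 332 of 520 (63.8%). All other percents are of 520. For D3 day 21 against day 7, edgeR called 41.0% (140 up and 73 down) and the fit of only the groups compared called 44.6% (232), against 26.9% (86 up and 54 down). When each library was left out, 15.0 to 31.0% (78 to 161) were called, with 78 without D3 day 7 replicate 2 and 78 without replicate 3. For D3 against B8 on the deposited values, 47.1% (245) were called at day 0 and 75.2% (391) at day 7, against 23.5% (122) and 41.5% (216). At day 7, 26.3 to 43.3% (137 to 225) were called when each library was left out, with 137 without D3 day 7 replicate 2 and 142 without replicate 3. For the interaction 74.2% (386) were called on the deposited values, against 33.3% (173). edgeR called 264, 326 and 339 in the 3 comparisons with day 0, in the order B8 day 7, D3 day 7 and D3 day 21, against 274, 328 and 332. Beyond the smaller number tested, the cause of these shifts was not tested.

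For miR-92b-3p, 164 of 175 log2 differences kept their direction and moved by less than the spread between replicates. Many of these could not move. A difference of group means is unchanged by the filters, the prior, the fit of only the groups compared and leaving out a library of another group. The count is therefore no measure of robustness, and the settings that change the scale are those to read. With equal column totals the others were 1.43 in B8 day 7 and 0.038 in D3 day 7 against day 0, 0.12 in D3 day 21 against day 7, -0.18 in D3 against B8 at day 7 and -1.39 for the interaction. On the deposited values they were 3.75 and 2.08 in D3 day 7 and day 21 against day 0, -1.67 in D3 day 21 against day 7, -0.028 and 1.99 in D3 against B8 at day 0 and day 7, and 2.01 for the interaction. Counting only miR-92a-3p and miR-92b-3p, the share of miR-92b-3p was 27.4% in B8 day 0, 78.1% in B8 day 7, 47.9% in D3 day 0, 88.0% in D3 day 7 and 88.2% in D3 day 21.

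Of 861 log2 differences of the 5 relatives under alternatives, 35 changed sign. Here too many of the settings could not change the difference. On the deposited values these were, in D3 day 7 against day 0, 0.75 for miR-92a-3p, 1.31 for miR-363-3p and 0.16 for miR-367-3p; in D3 day 21 against day 0, 1.43 for miR-25-3p and 1.30 for miR-367-3p; in D3 day 21 against day 7, -0.50 for miR-32-5p. In D3 against B8 they were -0.32 for miR-367-3p at day 0, and 1.03 for miR-25-3p and 0.97 for miR-92a-3p at day 7, and for the interaction 2.28 for miR-92a-3p and 1.65 for miR-367-3p. With equal column totals miR-25-3p was at -0.18 in B8 day 7 and -0.996 in D3 day 7 against day 0, 0.50 in D3 day 21 against day 7 and -0.82 for the interaction. On that scale miR-92a-3p was at 0.10 in D3 day 21 against day 7, miR-32-5p at -1.004 in D3 day 7 against day 0 and -0.14 in D3 against B8 at day 7, and miR-367-3p at -0.0061 there. With edgeR miR-32-5p was at -0.036 in D3 day 7, miR-367-3p at 0.065 in D3 day 21 against day 0, and miR-25-3p at -0.12 for the interaction. With totals equal outside miR-10a-5p and miR-10b-5p, miR-32-5p was at -0.059 in D3 day 21 against day 7 and miR-25-3p at -0.12 for the interaction. With a pseudocount of 0.2 per 1000000 the interaction of miR-367-3p was 0.54. When each library was left out, miR-367-3p ran from -0.25 to 0.29 in D3 day 21 against day 0, from -0.26 to 0.82 in D3 against B8 at day 7 and from -0.84 to 0.23 for the interaction. miR-32-5p ran from -0.050 to 0.40 in D3 day 21 against day 7, and miR-25-3p from -0.033 to 0.13 for the interaction. The limma interaction call of miR-363-3p was lost with equal column totals.

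The deviations of libraries with the same replicate number had correlations from -0.09 to 0.11 over 15 pairs, and 1 was over 0.1. With so few libraries in a group this cannot show whether the numbers pair the samples, and the main fit did not pair them. With the replicate block the counts were 270, 319 and 331 in the 3 comparisons with day 0 and 148 in D3 day 21 against day 7. The block turned the sign of the interaction of miR-25-3p, at -0.00766. At 9 reads in all, the depth allows no difference of miR-92b-5p between groups to be given.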
